A study of Mus musculus with 104 samples.

Results

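Transcripts of 9 transcription factor genes of macrophages were followed through 104 libraries of mouse monocytes, liver macrophages, sorted liver cells and cultured bone marrow cells. The genes, Spi1, Cebpb, Irf8, Maf, Tfec, Zeb2, Klf4, Bhlhe40 and Bhlhe41, were taken by their listed symbols, 9 of the 24940 genes in each of 8 deposited tables, and all 9 symbols were found in every table. The libraries fall into 47 groups of 2 to 4. Levels are TPM, reads scaled for transcript length and library, with comparisons made within a table.

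The first table follows the liver as it refills with macrophages. Kupffer cells, macrophages that reside in the liver, carry a diphtheria toxin receptor in Clec4f-cre/Rosa26iDTR mice and are removed by the toxin, after which monocytes enter and become repopulating liver macrophages. These macrophages were taken 12, 24, 48, 72, 168 and 336 h after toxin (2, 3, 2, 2, 3 and 3 libraries), beside Ly6C-high blood monocytes of untreated C57BL/6J mice (4 libraries, 1 of them titled as a pool) and Kupffer cells of Clec4f-cre/Rosa26iDTR mice 72 h after PBS (3 libraries). Clec4f drives Cre in Kupffer cells, so the receptor and the liver deletions below are limited to cells that express Clec4f.

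Nr1h3, the gene of the oxysterol receptor LXR-alpha, was flanked by loxP sites in all liver samples of the second table. TIM4-positive Kupffer cells of Nr1h3 flox/flox mice (2 libraries) stand beside TIM4-positive and TIM4-negative cells of Nr1h3 flox/flox Clec4f-cre +/- mice (2 each). The same table holds bone marrow-derived macrophages (BMDMs), macrophages grown from marrow for 7 days, from wild-type and Nr1h3 knockout mice (2 each, without stimulus). The third table holds cells of C57BL/6J livers in 3 sorts, STAB2 low, STAB2 intermediate and STAB2 high (2 each), STAB2 being a scavenger receptor of sinusoidal endothelium. The fourth holds Kupffer cells of Smad4 flox/flox mice (2 libraries) and TIM4-positive (3) and TIM4-negative (2) cells of Smad4 flox/flox Clec4f-cre +/- mice. SMAD4 pairs with the receptor-activated SMADs that TGF-beta and BMP ligands switch on.

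The other 4 tables tested niche signals. Smad4 control and Smad4 knockout BMDMs, cultured for 4 days, were left without stimulus or given TGF-beta, the Notch ligand DLL4, DLL4 with DAPT, or DLL4 with TGF-beta for 24 h (2 libraries in each of 10 groups). The Cre line of these knockouts is given in the sample labels as Clec4f-cre and in the series' design text as LysM-cre. DAPT inhibits gamma-secretase, the protease that releases the active part of Notch. C57BL/6J BMDMs were left without stimulus or given DLL4, DLL4 with TGF-beta, or both with DMHCA for 24 h or 72 h. DMHCA, a synthetic sterol ligand of LXR, was also given alone for 24 h (2 libraries in each of 9 groups). TGF-beta was not given alone to these cells. Macrophages taken 24 h after toxin came from fasted females given the gamma-secretase inhibitor LY411575 (3 libraries, 2 controls) or fasted males given antibodies to DLL1 and DLL4 (4 libraries, 2 controls). Their strain is given as C57BL/6J in the sample labels and as Clec4f-Cre/DTR in the design text. Bone marrow monocytes of C57BL/6J mice, named BMDM in the table's column names, were cultured for 2 days (2 libraries in each of 5 groups). They were left without stimulus or given desmosterol, a natural sterol ligand of LXR, DLL4, DLL4 with TGF-beta, or all 3 for 48 h. Ages of the mice are not given in the labels used here.

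Macrophage identity is set by layers of transcription factors. PU.1, encoded by Spi1, is an ETS protein that opens myeloid enhancers together with partners such as C/EBP-beta (Cebpb) and IRF8 (Irf8), while factors such as c-MAF (Maf), TFEC (Tfec) and ZEB2 (Zeb2) act on top of that base in differentiated macrophages. KLF4 (Klf4) is a zinc finger protein needed for Ly6C-high monocytes, and BHLHE40 and BHLHE41 are related basic helix-loop-helix repressors that bind E-boxes and help to sustain tissue macrophages.

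Recovered reads ran from 7830287 to 27776974 per library. Smad4 stood at 13.7 to 21.5 TPM in TIM4-positive knockout Kupffer cells against 33.4 to 35.7 TPM in controls, at 9.90 to 10.5 TPM in untreated knockout BMDMs against 25.0 to 25.3 TPM, and Nr1h3 at 8.05 to 8.81 TPM in knockout BMDMs against 41.9 to 43.3 TPM. In Kupffer cells labelled as Nr1h3 knockouts, Nr1h3 overlapped that of controls (391 to 422 against 393 to 409 TPM over all exons), and since an exon deletion can leave that value in place it checks nothing there. Clec4f and Marco, markers of Kupffer cells, were at 0 in all 4 monocyte libraries, and Timd4 was at 0 in wild-type BMDMs. Nothing in the labels tells whether replicate libraries stem from different animals or cultures, so a p-value here covers only the spread seen between the libraries, which may be technical. All samples are bulk RNA, in which fewer cells of a type and less RNA per cell cannot be told apart.

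A gene was called higher or lower where limma, fitted to all genes of a table on log2(TPM + 1), found at least a 2-fold difference with p below 0.05 after Benjamini-Hochberg adjustment. That scale understates differences of genes with low TPM. Genes with at least 4 TPM in 2 libraries were tested, which kept all 9 members in 4 tables, 8 in 3 and 7 in 1. Bhlhe41 was left out in the refilling, STAB2, Smad4 Kupffer cell and Notch blockade tables, and Spi1 in the STAB2 table. Groups without overlap are common in these tables, holding for 19.2 to 91.4% of all genes tested, depending on the comparison. An unadjusted p below 0.05, counted where no member was called, held for 585 to 5193 of all genes tested in those comparisons. Of all genes tested 0 to 36.5% were called, depending on the comparison. Over 43 comparisons the members gave 42 calls, in 22 comparisons, and 21 comparisons had none. The latter include 19 with none by limma-voom on recovered reads as well, a tool that made 50 calls in all.

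Klf4 was called in 13 of 43 comparisons, Maf in 9, Bhlhe40 in 6, Tfec in 4, Cebpb and Irf8 in 3 each, and Bhlhe41 in 4 of 28. Spi1 was called in 0 of 41 comparisons and Zeb2 in 0 of 43. Such tallies were not made for other genes, so they do not set the members apart. Outside the STAB2 cells, Spi1 ran from 278 to 546 TPM over 98 libraries, with a median of 384 TPM. Klf4 ran from 0.868 to 104 TPM over the same libraries, the lowest in BMDMs given DLL4 with TGF-beta and the highest in a blood monocyte library. Ranges across tables set side by side values that were scaled separately.

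**Figure D1:**
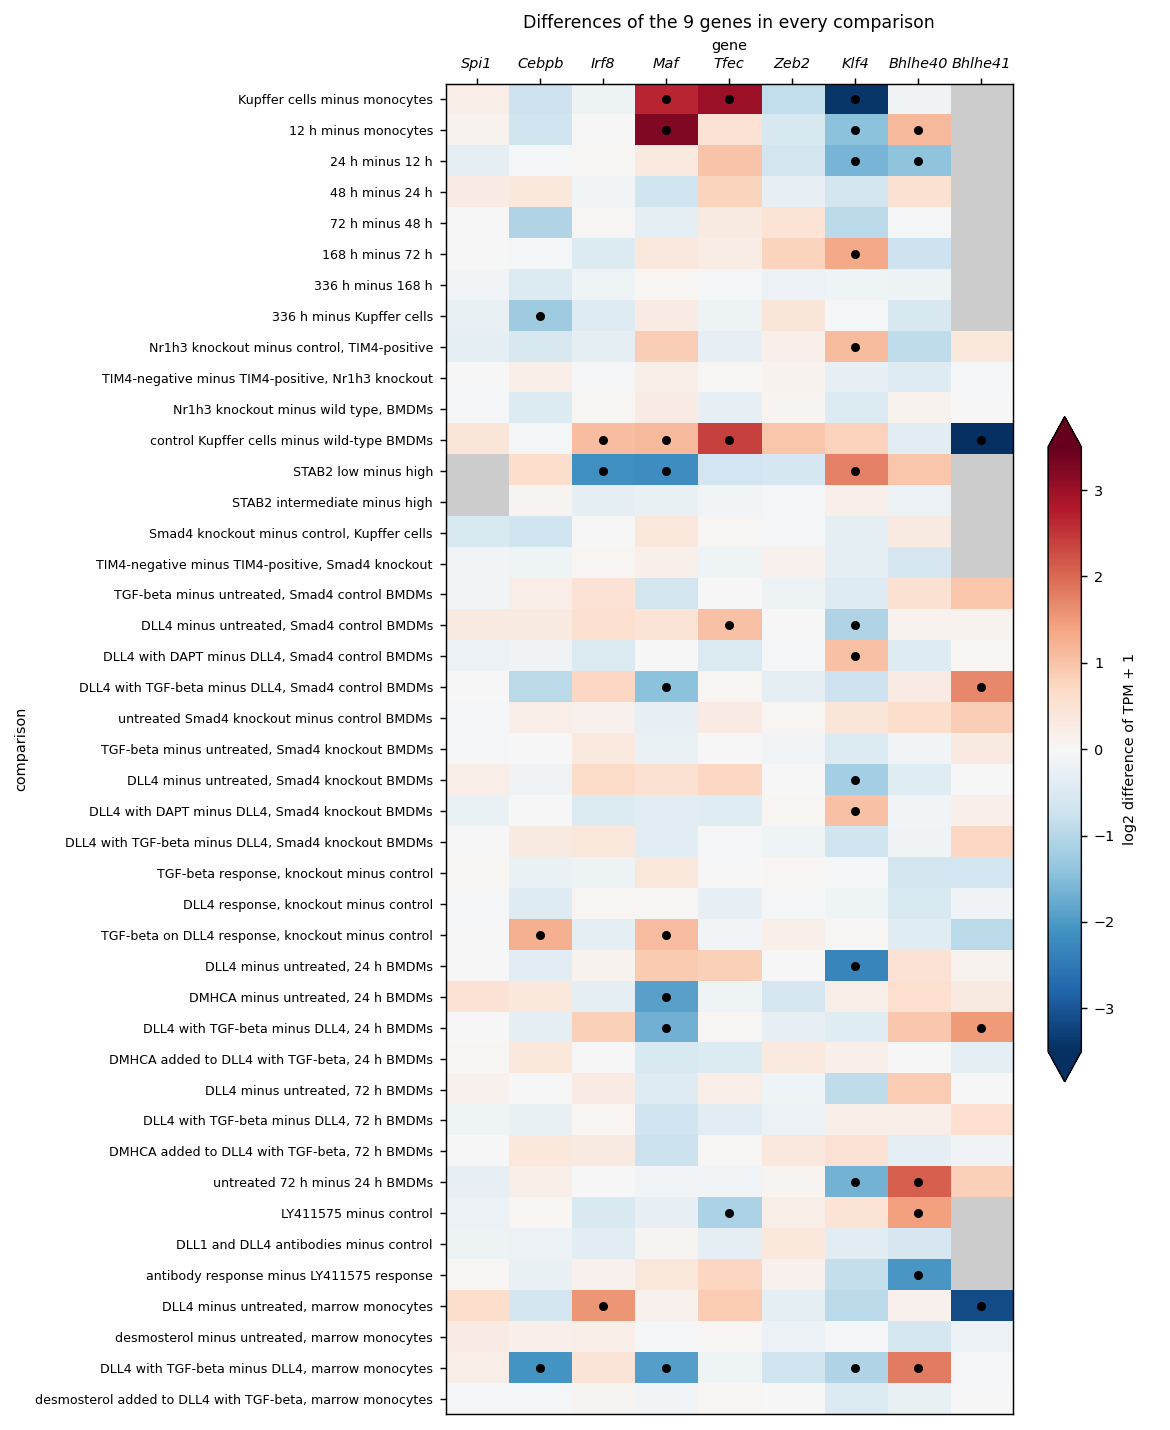
Log2 differences of TPM + 1 (colour, red higher and blue lower) for the 9 genes (columns) in 43 comparisons (rows); dots mark calls by limma (adjusted p below 0.05 and at least 2-fold) and grey marks genes that were not tested in that table. The 42 dots fall in 22 rows, 13 of them in the Klf4 column and 0 in the Spi1 and Zeb2 columns. Per row, 0 to 36.5% of all genes tested were called.

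The promoters of 3 members are shown because they gave the most calls (Klf4), followed the opposite course to Klf4 during refilling (Tfec) and had the largest difference of any member in any comparison (Bhlhe41). RefSeq promoter windows on GRCm38.p6, the mm10 build of the tables, matched 6 of the 9 members, with 10 start sites. Spi1, Maf and Bhlhe40 had no entry. Each sequence is the 250 bases before the start site of the transcript in the tables, 5′ to 3′ on the gene's strand, and capitals mark CACGTG, the E-box bound by BHLHE40, BHLHE41 and the MiT/TFE proteins, and GGGCGGGG or its complement, a GC box of KLF and SP proteins.
Klf4, chr4:55532476-55532725, - strand: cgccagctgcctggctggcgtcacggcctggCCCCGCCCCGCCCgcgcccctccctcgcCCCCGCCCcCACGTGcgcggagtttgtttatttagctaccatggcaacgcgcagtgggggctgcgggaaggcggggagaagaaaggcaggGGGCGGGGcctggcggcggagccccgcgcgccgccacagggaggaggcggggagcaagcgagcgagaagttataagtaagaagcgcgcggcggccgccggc
Tfec, chr6:16898442-16898691, - strand: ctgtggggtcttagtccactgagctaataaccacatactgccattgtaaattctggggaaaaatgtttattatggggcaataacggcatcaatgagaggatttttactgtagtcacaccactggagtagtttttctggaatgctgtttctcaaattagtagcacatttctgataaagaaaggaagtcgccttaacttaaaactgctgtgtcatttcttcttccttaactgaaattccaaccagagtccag
Bhlhe41, chr6:145865421-145865670, - strand: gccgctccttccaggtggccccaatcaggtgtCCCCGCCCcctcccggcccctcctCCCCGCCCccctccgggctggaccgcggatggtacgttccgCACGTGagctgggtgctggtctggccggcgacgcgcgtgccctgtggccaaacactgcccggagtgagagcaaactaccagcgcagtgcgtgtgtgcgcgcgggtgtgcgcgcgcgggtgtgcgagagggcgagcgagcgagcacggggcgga

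CACGTG stood once in the Klf4 window, 182 bases before the start, and once in the Bhlhe41 window, and 6.02% of all 32851 windows of that length hold it. The GC box matched 4 times in the Klf4 window, 2 of these overlapping, and 2 times in the Bhlhe41 window, against a share of 16.1% of all windows with a match. The Bhlhe41 window also held 2 matches to the ZEB site and 1 to the SMAD site named next, left in lower case. The Tfec window held 0 matches to the 11 motifs searched on either strand: TGGGAA (RBPJ, the DNA-binding partner of Notch, in 21.6% of windows), GAGGAAGT and its core GAGGAA (PU.1, 2.44% and 23.3%), TTGCNNAA (C/EBP, 9.56%), the E-box CACGTG, the ZEB site CAGGTG ( 17.2%), TGCTGA (MAF, 16.1%), GGGTGTGG (KLF, 3.2%), GGGCGGGG, CAGAC (SMAD, 42.2%) and the ETS-IRF composite element (2.3%). GC content was 74.0% in the Klf4 window, 73.6% in the Bhlhe41 window and 39.2% in the Tfec window, with a median of 52.4% over all windows. No match says only that these letters are absent from these bases.

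How do the factors differ between Kupffer cells and the blood monocytes that can replace them? Maf and Tfec were higher in Kupffer cells and Klf4 was lower, while Spi1 and Irf8 differed by log2 0.22 and -0.17, under 2-fold. Of the 8 members tested 3 were called, against 35.1% of all 11373 genes, a share near the background. Cebpb and Zeb2 stood lower in Kupffer cells by less than 2-fold. The 3 called genes took different courses over the time points between.

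Maf, c-MAF, a basic leucine zipper factor of differentiated macrophages (chromosome 8, 115703253 to 115706894, - strand, mm10 as for all gene positions here), stood at 29.1, 29.6, 48.7 and 38.7 TPM in the 4 monocyte libraries. At 12 h it stood at 316.9 and 378 TPM, at 24 h at 459, 531 and 345 TPM and in Kupffer cells at 239.9, 235 and 226 TPM. All monocyte libraries were below all others of the table. Maf was higher than in monocytes at 12 h (log2 difference 3.24 ± 0.20, adjusted p = 9.6e-10) and in Kupffer cells (log2 difference 2.68 ± 0.18, adjusted p = 3e-10), 2 comparisons that share the monocyte libraries. At 48 h it stood at 260.0 and 279.8 TPM, lower than at 24 h by less than 2-fold (log2 difference -0.70 ± 0.22, adjusted p = 0.042). At 336 h it stood at 299, 296 and 262 TPM, not called against Kupffer cells (log2 difference 0.29 ± 0.19, adjusted p = 0.31).

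Tfec, a macrophage member of the MiT/TFE family whose other members steer lysosome genes (chromosome 6, 16833381 to 16898441, - strand), had a slower course. It stood at 12.1, 19.6, 7.02 and 10.2 TPM in monocytes and 16.4 and 16.7 TPM at 12 h, where the libraries overlapped those of monocytes. Values were 37.6, 39.7 and 26.4 TPM at 24 h, 72.8 and 48.3 TPM at 48 h, 84.5 and 64.8 TPM at 72 h and 84.4, 87.4 and 97.6 TPM at 168 h. Kupffer cells held 96.9, 94.9 and 101 TPM, and every library from 24 h on was above every monocyte library. The difference between Kupffer cells and monocytes was called (log2 difference 2.98 ± 0.22, adjusted p = 1.3e-09), but no step from one time to the next was. The step from 12 to 24 h was just under 2-fold (log2 difference 1.00 ± 0.27, adjusted p = 0.011) and passed it without the third 24 h library (log2 1.17, adjusted p = 0.0072). In the second table the control Kupffer cells held 85.3 and 82.2 TPM and in the fourth 103 and 99.3 TPM.

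Klf4 (chromosome 4, 55527137 to 55532475, - strand), a factor of inflammatory monocytes, went the other way. Monocytes held 81.8, 99.0, 92.1 and 104 TPM, the 12 h macrophages 50.3 and 23.3 TPM and the 24 h macrophages 14.7, 9.17 and 8.55 TPM. It was lowest at 72 h, with 2.71 and 3.00 TPM, and Kupffer cells held 7.37, 6.86 and 9.72 TPM. None of the groups from 12 h on overlapped the monocytes. Klf4 was lower than in monocytes at 12 h (log2 difference -1.43 ± 0.29, adjusted p = 0.00033) and in Kupffer cells (log2 difference -3.42 ± 0.25, adjusted p = 1.1e-09). It fell from 12 to 24 h (log2 difference -1.62 ± 0.30, adjusted p = 0.00079). From 72 to 168 h it rose to 6.24, 8.66 and 12.2 TPM (log2 difference 1.34 ± 0.30, adjusted p = 0.0025).

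Bhlhe40 (chromosome 6, 108660629 to 108666925, + strand), a repressor that also answers to cytokines and hypoxia, peaked at 12 h. Monocytes held 7.29, 4.46, 12.5 and 9.58 TPM, the 12 h libraries 17.2 and 20.3 TPM and the 24 h libraries 11.7, 4.47 and 5.01 TPM. The 12 h libraries were above every other library of the table. Bhlhe40 was higher at 12 h than in monocytes (log2 difference 1.14 ± 0.33, adjusted p = 0.0064) and fell from 12 to 24 h (log2 difference -1.40 ± 0.35, adjusted p = 0.0068). Against monocytes at 12 h 3 of 8 members were called, beside 25.2% of all genes, and from 12 to 24 h 2 of 8, beside 6.16%.

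The 12 h values rest on 2 libraries that stood apart for Klf4. Without the second 12 h library, the difference of Klf4 from monocytes was log2 -0.89, under 2-fold, and 1 member was called in place of 3. The Bhlhe40 differences then missed the adjusted p, at log2 1.02 (adjusted p = 0.066) against monocytes and -1.29 (adjusted p = 0.057) for 24 h against 12 h. Without the second monocyte library, Bhlhe40 stood at log2 0.90 at 12 h, under 2-fold.

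Bhlhe41 (chromosome 6, 145858243 to 145865420, - strand), the closest relative of Bhlhe40, was at the edge of detection during refilling. It had 0 reads in all 4 monocyte libraries, 107 and 297 reads at 12 h, 49, 30 and 13 at 24 h and 9, 15 and 19 in Kupffer cells. The 12 h libraries, at 1.77 and 4.09 TPM, were above the 24 h libraries, at 0.899, 0.457 and 0.287 TPM. With no filter on low values the step down from 12 to 24 h was called (log2 -1.30 ± 0.21, adjusted p = 0.00049). No fold is given against monocytes, where it was listed at 0.

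Spi1 (chromosome 2, 91096678 to 91115759, + strand), which encodes PU.1, had the narrowest range of the members during refilling, with a ratio of 1.34 between its highest and its lowest group mean TPM. Monocytes stood at 382, 489, 359 and 405 TPM, the 24 h macrophages at 341, 365 and 358 TPM and Kupffer cells at 444, 494 and 486 TPM, and the Kupffer and monocyte libraries overlapped. The Kupffer cell difference passed the adjusted p but not 2-fold (log2 difference 0.22 ± 0.09, adjusted p = 0.036), with a 95% interval of 0.03 to 0.42. By mean TPM over the 22 libraries, Spi1 was above 98.8% of the genes tested, Maf above 97.5%, Cebpb above 96.6%, Irf8 above 94.5%, Zeb2 above 94.0%, Tfec above 84.7%, Klf4 above 65.3% and Bhlhe40 above 30.3%.

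Irf8 (chromosome 8, 120736358 to 120756692, + strand), a partner of PU.1 that directs monocyte and dendritic cell fates, stood at 123, 143, 147 and 169 TPM in monocytes and 136, 122 and 129 TPM in Kupffer cells, which overlapped. It was lower at 168 h, with 102, 105 and 106.4 TPM, than at 72 h, with 154 and 136 TPM, by less than 2-fold (log2 difference -0.47 ± 0.11, adjusted p = 0.0035). At 336 h it stood at 90.5, 88.0 and 105 TPM, below all Kupffer cell libraries (log2 difference -0.45 ± 0.10, adjusted p = 0.0046).

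Zeb2 (chromosome 2, 44983512 to 45113279, - strand), a zinc finger repressor that keeps macrophage identity in several tissues, was lowest at 48 h. It stood at 198, 178, 186 and 177 TPM in monocytes, 127 and 121 TPM at 12 h, 83.2, 81.9 and 71.9 TPM at 24 h and 64.9 and 64.1 TPM at 48 h. By 168 h it stood at 169, 156 and 142 TPM, and Kupffer cells held 91.9, 104 and 109 TPM. The steps to 12 h, to 24 h, to 72 h and to 168 h passed the adjusted p and stayed under 2-fold, with log2 -0.57 from monocytes to 12 h (adjusted p = 4.1e-05), -0.65 from 12 to 24 h (adjusted p = 0.00013), 0.49 from 48 to 72 h (adjusted p = 0.031) and 0.77 from 72 to 168 h (adjusted p = 1.7e-05). The step from 24 to 48 h did not pass (adjusted p = 0.065). The tables list 4 isoforms of it, 1 a table, which changes the length its TPM are scaled by between tables.

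Cebpb (chromosome 2, 167688915 to 167690432, + strand), an intronless C/EBP gene of the inflammatory response, spread widely within groups. Monocytes held 276, 442, 244 and 311 TPM, the 336 h macrophages 92.9, 77.5 and 71.0 TPM and Kupffer cells 111, 217 and 281 TPM, and all 336 h libraries were below all Kupffer cell libraries. The 336 h difference was called (log2 difference -1.23 ± 0.30, adjusted p = 0.0074), as the only member of 8 against 3.82% of all genes. Without the third Kupffer cell library it was log2 -0.95, under 2-fold. Summed TPM of 14 stress genes, immediate early and heat shock genes that dissociation induces, were 823, 950.3 and 1149 in the same 3 Kupffer cell libraries and 588, 417 and 673 in the 336 h libraries, and their part in the Cebpb values was not tested.

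The later steps called few members. Between 24 and 48 h limma called 0 of 8 (4.26% of all genes), 4 had an unadjusted p below 0.05 and limma-voom called 0. Between 48 and 72 h limma called 0 of 8 (0.422% of all genes), 3 had an unadjusted p below 0.05 and limma-voom called 0, with Cebpb at 214 and 272 TPM before and 125 and 107 TPM after (log2 difference -1.05 ± 0.36, adjusted p = 0.14). Between 72 and 168 h Klf4 was the 1 of 8 called, against 8.15% of all genes. Between 168 and 336 h limma called 0 of 8 (0.0703% of all genes), 1 had an unadjusted p below 0.05 and limma-voom called 0.

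**Figure D2:**
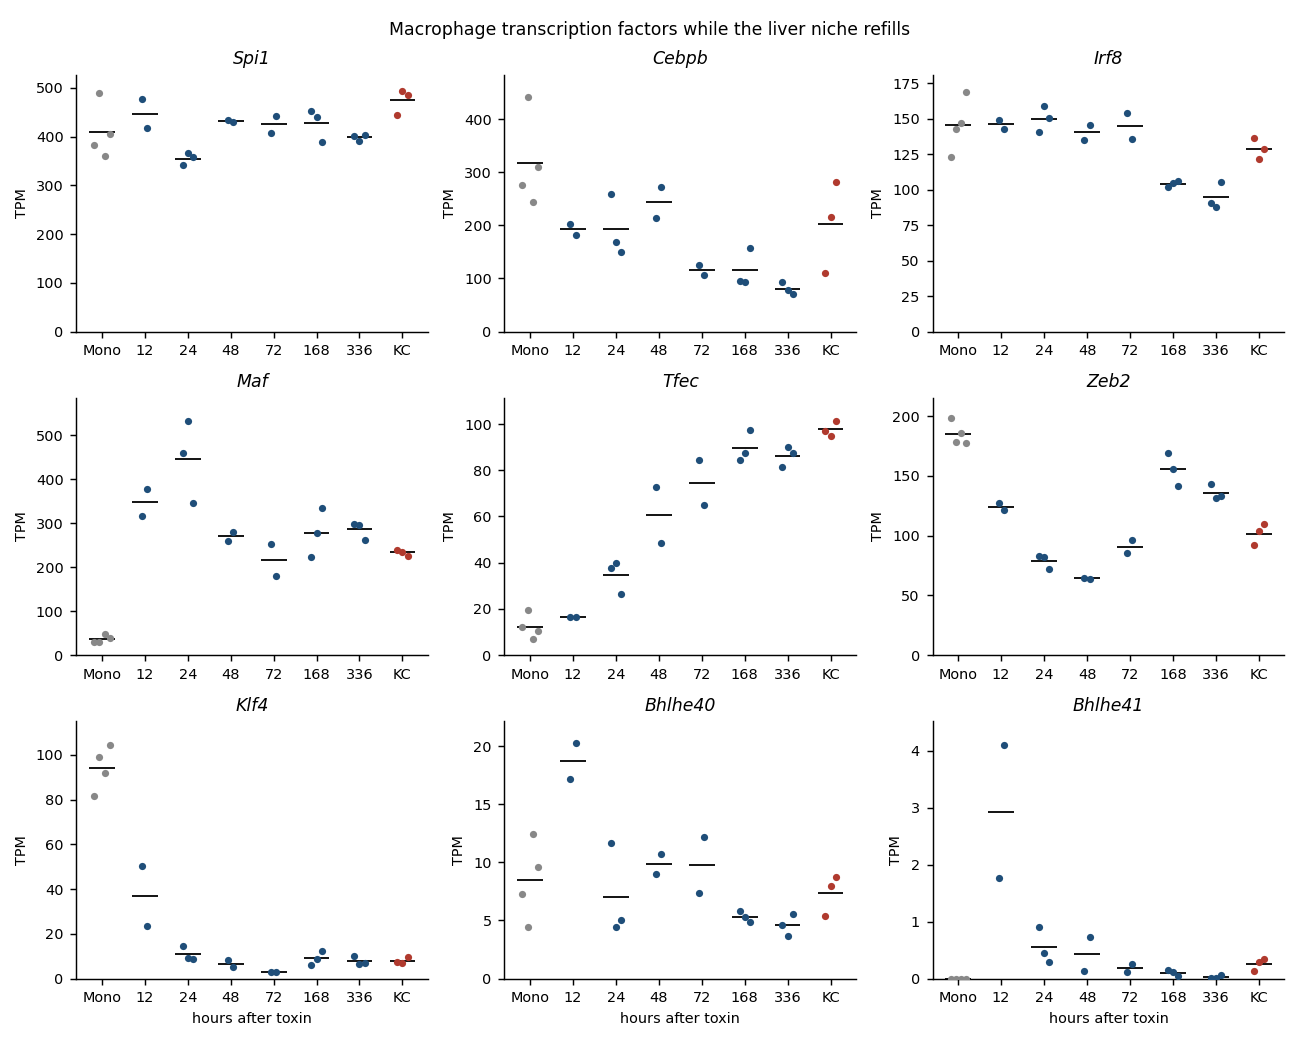
TPM of each of the 9 genes per library (points, with group means as bars) in blood monocytes (Mono, grey), repopulating liver macrophages by hours after toxin (blue) and Kupffer cells after PBS (KC, red); each panel has its own linear axis from 0. Maf is above 170 TPM in every macrophage library and below 50 TPM in every monocyte library, the mean of Tfec is higher at each time from 12 h to 168 h, Klf4 is above 80 TPM in monocytes and below 15 TPM from 24 h on, and Bhlhe40 and Bhlhe41 are highest at 12 h.

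Other factors of the same families were read from lists of relatives. Of 40 relatives tested 9 were higher in Kupffer cells than in monocytes and 12 lower, where 35.1% of all genes were called. Their median log2 difference was -0.46, against -0.06 over all genes. The PU.1-like factor Spic, tied to iron-handling macrophages, was higher (log2 4.06 ± 0.19, adjusted p = 1.3e-12). Of 8 KLF relatives 5 were lower, among them Klf2 (log2 -2.93 ± 0.35, adjusted p = 5.5e-07), Klf6 and 3 others, and 2 were higher, Klf7 and Klf9. Irf4 was lower (log2 -3.77 ± 0.32, adjusted p = 5.9e-09) and Irf7 higher (log2 1.18 ± 0.22, adjusted p = 0.00012). Of 12 genes known to depend on PU.1, 1 was higher (Csf1r, the CSF1 receptor, log2 1.81 ± 0.10, adjusted p = 1.4e-11) and 6 lower, among them Lyz2, lysozyme (log2 -2.82 ± 0.19, adjusted p = 2.7e-10), and Itgam, the CD11b integrin (log2 -3.64 ± 0.25, adjusted p = 3.7e-10). At 12 h 6 of 40 relatives were higher than in monocytes and 11 lower, where 25.2% of all genes were called.

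Markers of other cells moved across the same samples. Summed TPM of 8 markers of sinusoidal endothelium were 4.36 to 7.14 in monocytes, 315 to 664 at 12 h, 186 to 669.9 at 24 h and 455 to 492 in Kupffer cells. The 12 h sums came to 2.06 to 4.35% of the lowest STAB2-high library, in which Maf stood at 1021 TPM or more. Stress gene sums were 1711 to 4073 TPM in monocytes, 351 to 506 at 12 h and 198 to 461 at 24 h. Monocyte marker sums were 7620 to 9089 TPM in blood and 1778 to 4850 at 12 h, where the 2 libraries lay far apart. Hepatocyte marker sums were 0 to 0.369 TPM in monocytes, with Ttr and Fgb at 0 in all 4 libraries, 316.6 to 1200 at 12 h and 351 to 4406 in Kupffer cells. Erythroid marker sums were 1108 to 4462 TPM in monocytes, 0.729 to 1.72 at 12 h and 18.6 to 95.01 in Kupffer cells. The part of these in the Klf4, Maf, Tfec and Bhlhe40 values was not tested.

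Across the 22 libraries, Tfec and Klf4 ran opposite to each other (Pearson r = -0.857 on log2(TPM + 1), a description over libraries that share groups), and so did Maf and Klf4 (r = -0.741). Maf and Tfec ran together less closely (r = 0.6). The genes whose levels were most like those of Maf were Mmp14 (r = 0.964), Sdc4 (r = 0.962) and Tpcn2 (r = 0.958). Those most like Tfec were Il18bp (r = 0.978), C1ra and R74862, and those most like Klf4 were Tnfrsf1b (r = 0.973), Diaph1 and Malt1. Zeb2 was most like Bmt2 (r = 0.97), Irf8 most like Cactin (r = 0.891), Cebpb most like Sik1 (r = 0.866) and Bhlhe40 most like Gtf2h1 (r = 0.84). Spi1 had no close match, the best being Cyb5d1 (r = 0.695).

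The second table sets Kupffer cells beside BMDMs, macrophages grown without a liver. Irf8, Maf and Tfec were higher in control Kupffer cells and Bhlhe41 lower, 4 of 9 members against 36.5% of all 10558 genes. Bhlhe41 stood at 0.125 and 0.085 TPM in Kupffer cells and 59.8 and 67.1 TPM in wild-type BMDMs (log2 difference -5.86 ± 0.10, adjusted p = 3e-10). Tfec stood at 85.3 and 82.2 TPM against 15.1 and 14.9 TPM (log2 difference 2.41 ± 0.07, adjusted p = 9.4e-09). In neither case did the groups come near each other.

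Maf stood at 292 and 269 TPM in control Kupffer cells and 128 and 128 TPM in wild-type BMDMs (log2 difference 1.13 ± 0.11, adjusted p = 1.9e-05). Irf8 stood at 129 and 133 against 60.4 and 62.5 TPM (log2 difference 1.08 ± 0.06, adjusted p = 2.6e-07). Zeb2 was just under 2-fold, at 118 and 133 against 63.1 and 63.5 TPM (log2 difference 0.98 ± 0.08, adjusted p = 3.5e-06), and passed it under quantile normalization (log2 1.00). Klf4 stood higher in Kupffer cells here, at 16.9 and 14.5 against 8.49 and 8.37 TPM, also under 2-fold. Of 39 relatives 14 were higher in Kupffer cells and 1 lower, where 36.5% of all genes were called. The lower was Mafg (log2 -1.24 ± 0.08, adjusted p = 1.1e-06), and Spic was among the higher (log2 4.74 ± 0.09, adjusted p = 8e-10). The sum of 7 Kupffer cell markers was 18610 to 18670 TPM against 611 to 719.8 TPM. Sums of endothelial markers were 297 to 308 against 15.3 to 16.0 TPM, of neutrophil markers 5.86 to 11.1 against 130.2 to 148 TPM and of stress genes 1022 to 1386 against 631 to 639.6 TPM. Hepatocyte markers summed to 194 to 690.3 TPM in Kupffer cells and were all at 0 in wild-type BMDMs. The part of other cells in these differences was not tested.

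What happens to the factors when Kupffer cells lose LXR-alpha? In TIM4-positive cells labelled as Nr1h3 knockouts, Klf4 was higher and Maf stood higher by less than 2-fold, while Bhlhe40 stood lower. Klf4 stood at 36.2 and 34.0 TPM against 16.9 and 14.5 TPM in controls (log2 difference 1.12 ± 0.09, adjusted p = 9.1e-05), the 1 call among 9 members against 2.86% of all genes. Maf stood at 466.4 and 563 against 292 and 269 TPM (log2 difference 0.87 ± 0.11, adjusted p = 0.0012), and Bhlhe40 at 6.78 and 6.04 against 12.4 and 12.7 TPM (log2 difference -0.88 ± 0.09, adjusted p = 0.00027). The knockout and control libraries did not overlap for any of the 9 members, which held for 57.1% of all genes.

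Maf and Bhlhe40 were called under other settings. Without the first knockout library, Maf reached log2 1.01 and 2 members were called. With quantile normalization Bhlhe40 reached log2 -1.03 and 2 were called. With limma-voom 3 were called, namely Klf4, Bhlhe40 and, from few reads, Bhlhe41. Cebpb, Spi1, Irf8 and Tfec stood lower with an adjusted p below 0.05 and by less than 2-fold, from log2 -0.57 for Cebpb to -0.28 for Tfec, in a comparison where the median over all genes was log2 0.10. Kupffer cell marker sums were 10170 to 11100 TPM against 18610 to 18670, endothelial sums 441 to 479.8 against 297 to 308 and stress sums 1096 to 1586 against 1022 to 1386, and their part in these differences was not tested.

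TIM4 marks Kupffer cells of long residence. Between TIM4-negative and TIM4-positive cells of the Nr1h3 knockout limma called 0 of 9 (0.597% of all genes), 2 had an unadjusted p below 0.05 and limma-voom called 0. Bhlhe40 had the one adjusted p below 0.05, at 4.61 and 4.18 TPM in TIM4-negative and 6.78 and 6.04 TPM in TIM4-positive cells (log2 difference -0.46 ± 0.09, adjusted p = 0.047). Both groups carry the same replicate numbers in their titles, and the fit did not pair them. Between knockout and wild-type BMDMs limma called 0 of 9 (0.417% of all genes), 4 had an unadjusted p below 0.05 and limma-voom called 0. Klf4 stood at 5.78 and 5.66 against 8.49 and 8.37 TPM there (log2 difference -0.49 ± 0.09, adjusted p = 0.037), opposite in sign to Kupffer cells, a difference between cell kinds that was not tested.

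Loss of Smad4 in Kupffer cells left the members without a call. For TIM4-positive knockout cells against controls limma called 0 of 8 (0.965% of all genes), 2 had an unadjusted p below 0.05 and limma-voom called 0. Spi1 stood at 322, 358 and 383 TPM against 481.3 and 535 TPM, with no overlap (log2 difference -0.52 ± 0.12, adjusted p = 0.11). Cebpb stood at 112, 97.9 and 149 against 182 and 203 TPM, again with no overlap (log2 difference -0.70 ± 0.19, adjusted p = 0.17), where stress gene sums were 671 to 1420 against 1547 to 3329 TPM. Their part in the Cebpb values was not tested. Between TIM4-negative and TIM4-positive knockout cells limma called 0 of 8 (0.0503% of all genes), 1 had an unadjusted p below 0.05 and limma-voom called 0. In their titles 1 library of each of these groups carries the same sample number, and the fit did not pair them.

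Can niche signals move the factors in BMDMs? In Smad4 control BMDMs DLL4 raised Tfec and lowered Klf4, 2 of 9 members against 4.06% of all 10267 genes. Tfec went from 21.5 and 22.02 TPM without stimulus to 45.6 and 44.4 TPM with DLL4 (log2 difference 1.01 ± 0.09, adjusted p = 6.4e-07), and Klf4 from 4.95 and 6.19 to 1.77 and 2.55 TPM (log2 difference -1.06 ± 0.13, adjusted p = 1.9e-05). The libraries of the 2 groups did not overlap for either gene. Both calls sat at the 2-fold line: without the first untreated library Tfec was under it and 1 member was called, without the second untreated library Klf4 was at -0.92 and 1 was called, and without the first DLL4 library they were at 0.99 and -0.88 and 0 were called. Irf8, Maf, Spi1 and Cebpb stood higher by less than 2-fold, at log2 0.57, 0.48, 0.31 and 0.33. Of 38 relatives 2 were higher, Spic (log2 3.29 ± 0.24, adjusted p = 1.4e-07) and Irf1, and of 12 PU.1-dependent genes 3 were higher, Csf3r and Ptprc among them.

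DAPT blocks the release of active Notch. With DLL4 and DAPT, Klf4 stood at 5.39 and 5.29 TPM, above both DLL4 libraries (log2 difference 1.02 ± 0.13, adjusted p = 4.7e-05), the 1 of 9 called against 2.09% of all genes. The call was lost without the first DLL4 library (log2 0.84). Tfec stood at 31.4 and 31.4 TPM, between the untreated and the DLL4 libraries (log2 difference -0.51 ± 0.09, adjusted p = 0.00068). Irf8 stood at 76.3 and 78.8 TPM, below both DLL4 libraries at 112 and 111 TPM (log2 difference -0.52 ± 0.05, adjusted p = 6.5e-06). Maf, at 155 and 176 TPM, overlapped its DLL4 libraries at 171 and 156 TPM. DLL4 libraries serve both comparisons.

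TGF-beta alone called no member. In control BMDMs limma called 0 of 9 (4.17% of all genes) and limma-voom called 1. There 6 members and 4629 of all 10267 genes had an unadjusted p below 0.05. Bhlhe41 missed 2-fold narrowly, going from 10.8 and 9.47 to 18.9 and 23.0 TPM (log2 difference 0.98 ± 0.09, adjusted p = 1.4e-06), and was called with a pseudocount of 0.25 (log2 1.03), with limma-voom (1.09) and without the first untreated or the first TGF-beta library (1.06 and 1.11). Maf stood lower with TGF-beta, at 69.2 and 81.8 against 120.4 and 115 TPM (log2 difference -0.64 ± 0.08, adjusted p = 2.4e-05). Bhlhe40 and Irf8 stood higher, at log2 0.54 and 0.52, both with adjusted p below 0.05.

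Added to DLL4, TGF-beta lowered Maf and raised Bhlhe41, 2 of 9 members against 6.66% of all genes. Maf fell from 171 and 156 to 57.4 and 61.7 TPM (log2 difference -1.44 ± 0.08, adjusted p = 5.2e-09). Bhlhe41 rose from 11.4 and 11.03 to 37.7 and 38.7 TPM (log2 difference 1.68 ± 0.09, adjusted p = 4.4e-09). The groups lay well apart for both. Cebpb stood at 52.3 and 48.9 TPM against 98.1 and 96.9 TPM, just under 2-fold (log2 difference -0.93 ± 0.12, adjusted p = 2.1e-05), and Irf8 at 183 and 188 TPM, the highest of the control groups (log2 difference 0.73 ± 0.05, adjusted p = 6.1e-08). Klf4 stood at 0.868 and 0.92 TPM (log2 difference -0.73 ± 0.13, adjusted p = 0.00032) and was called with a pseudocount of 0.25 (log2 -1.06) and with limma-voom (-1.15). Tfec, at 49.2 and 44.8 TPM, overlapped its DLL4 libraries. Of 38 relatives 3 were lower, namely Spic, Irf7 and Klf2. The sum of the endothelial list, which holds scavenger and adhesion genes that macrophages can also express, was 179 to 214 TPM against 30.6 to 31.1 TPM.

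DLL4 lowered Klf4 in Smad4 knockout BMDMs as well. It went from 7.58 and 7.87 to 2.89 and 2.72 TPM (log2 difference -1.20 ± 0.13, adjusted p = 6.3e-06), the 1 of 9 called against 3.39% of all genes, and Tfec from 28.1 and 25.8 to 46.4 and 43.2 TPM, under 2-fold (log2 difference 0.71 ± 0.09, adjusted p = 2.1e-05). For the difference in DLL4 response between genotypes limma called 0 of 9 (0% of all genes), 3 had an unadjusted p below 0.05 and limma-voom called 0, with 843 of all genes at an unadjusted p below 0.05. The difference in response was log2 -0.14 for Klf4 (95% interval -0.52 to 0.25) and -0.30 for Tfec (95% interval -0.56 to -0.04). With DAPT Klf4 rose to 7.04 and 6.33 TPM (log2 difference 1.01 ± 0.13, adjusted p = 4.6e-05), 1 of 9 against 1.82%, a call at the 2-fold line that was lost under quantile normalization (log2 0.98) and without the second DLL4 or the first DAPT library (0.98 and 0.95).

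The response to TGF-beta on top of DLL4 differed between genotypes for Maf and Cebpb. In knockouts Maf stood at 106.1 and 107 TPM with both signals and 139 and 136 TPM with DLL4 (log2 difference -0.37 ± 0.08, adjusted p = 0.0097), and the difference between the genotypes' responses was called (log2 difference 1.08 ± 0.11, adjusted p = 2.8e-05). Cebpb stood at 95.03 and 113 against 84.0 and 82.1 TPM in knockouts (log2 difference 0.32 ± 0.12, adjusted p = 0.13), opposite in sign to controls, and its difference between responses was called too (log2 difference 1.25 ± 0.17, adjusted p = 0.00022). These were 2 of 9 members against 2.23% of all genes. For the knockout response itself limma called 0 of 9 (0.799% of all genes) and limma-voom called 0. In it 5 members and 2401 of all 10267 genes had an unadjusted p below 0.05. Bhlhe41 stood at 33.7 and 31.3 against 19.5 and 18.9 TPM in knockouts (log2 difference 0.73 ± 0.09, adjusted p = 0.00019), and its difference between genotypes was just under 2-fold (log2 difference -0.95 ± 0.13, adjusted p = 0.00022) and was called with limma-voom (log2 -1.06), quantile normalization (-1.01) and without the first DLL4 and TGF-beta library of the knockout (-1.01). Irf8 stood at 171 and 178 TPM in knockouts given both, and its difference between genotypes had an adjusted p of 0.0092. Neutrophil marker sums with both signals were 6542 to 6975 TPM in controls and 3122 to 3384 TPM in knockouts. With DLL4 they were 4888 to 5888 and 2433 to 2993 TPM, and their part in these differences was not tested.

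TGF-beta alone was also read in both genotypes. In knockouts limma called 0 of 9 (0.545% of all genes), 4 had an unadjusted p below 0.05 and limma-voom called 0, and for the difference between genotypes limma called 0 of 9 (1.2% of all genes), 4 had an unadjusted p below 0.05 and limma-voom called 0. Among the latter were Bhlhe41 (log2 difference -0.67 ± 0.13, adjusted p = 0.0056), Bhlhe40 (log2 difference -0.64 ± 0.12, adjusted p = 0.0034) and Maf (log2 difference 0.40 ± 0.11, adjusted p = 0.048), all under 2-fold. Without any stimulus limma called 0 of 9 (1.13% of all genes) and limma-voom called 0. Here 6 members and 3919 of all 10267 genes had an unadjusted p below 0.05. Untreated knockouts held 18.8 and 19.5 TPM of Bhlhe41 against 10.8 and 9.47 TPM in controls (log2 difference 0.86 ± 0.09, adjusted p = 3e-05) and 20.49 and 21.5 against 13.0 and 13.6 TPM of Bhlhe40 (log2 difference 0.62 ± 0.08, adjusted p = 0.00019). The knockout and control libraries did not overlap for any of the 9 members without stimulus, as for 70.9% of all genes. Neutrophil marker sums were 2274 to 2440 TPM in untreated knockouts and 3987 to 4139 TPM in untreated controls, and their part was not tested.

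**Figure D3:**
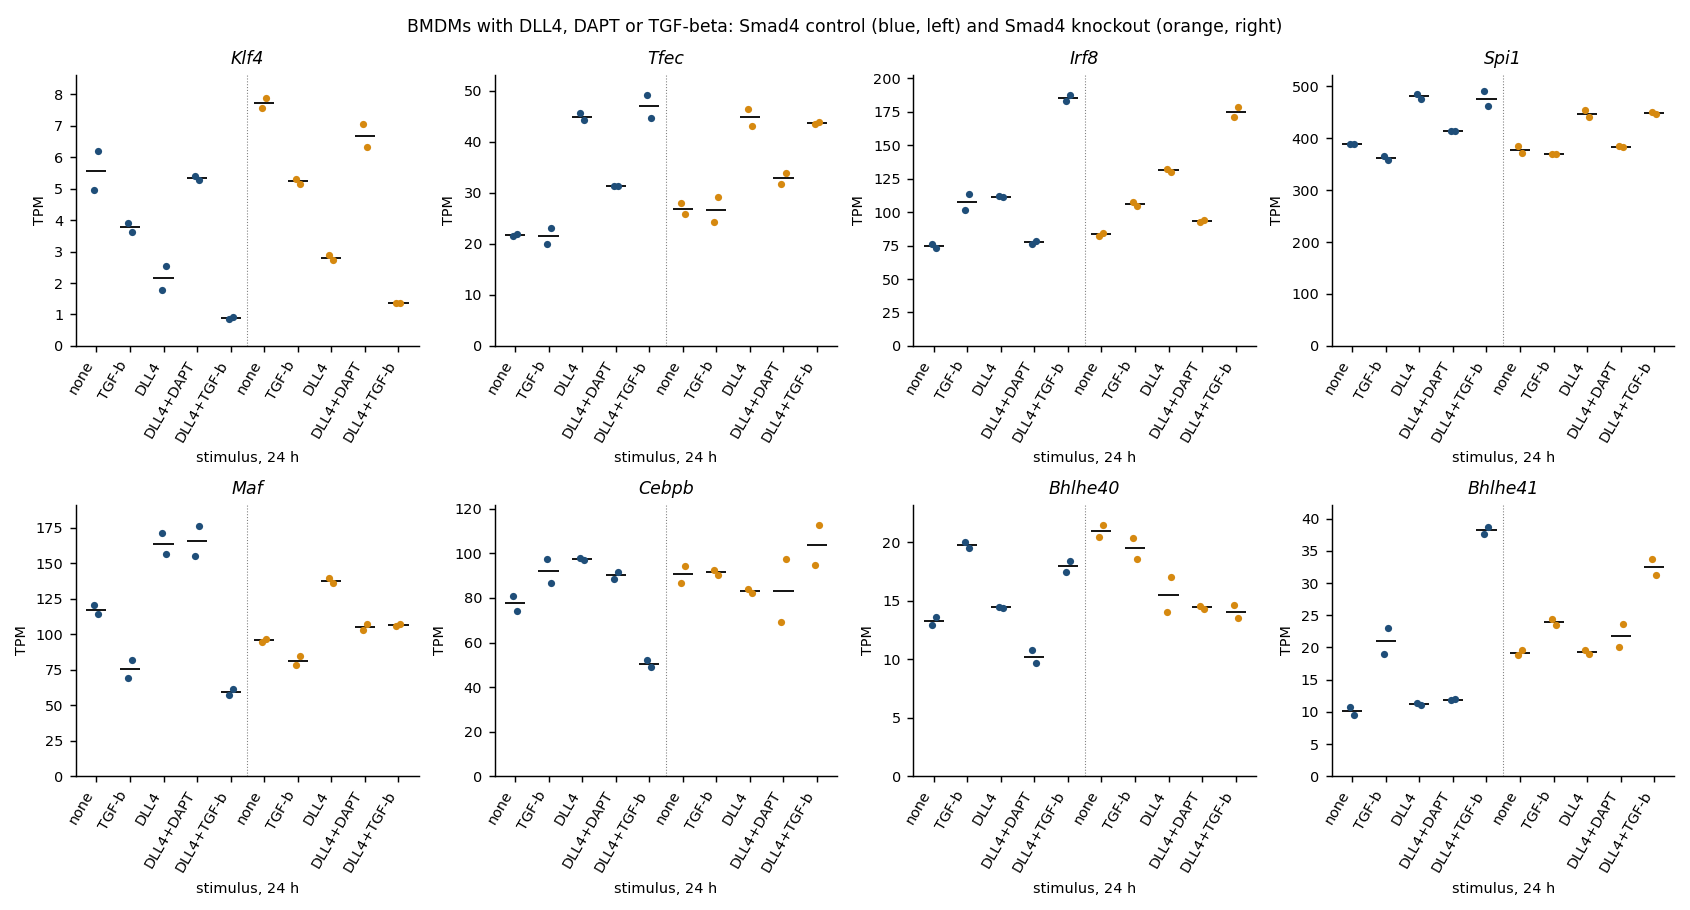
TPM per library (points) with group means (bars) of 8 genes in Smad4 control (blue, left) and Smad4 knockout (orange, right) BMDMs after 24 h without stimulus or with TGF-beta, DLL4, DLL4 and DAPT, or DLL4 and TGF-beta; each panel has its own linear axis from 0. Klf4 is lowest and Irf8 highest with DLL4 and TGF-beta in both genotypes, while Maf and Cebpb stand with that pair at 57.4 to 61.7 and 48.9 to 52.3 TPM in controls and at 106.1 and 107 and 95.03 and 113 TPM in knockouts.

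C57BL/6J BMDMs gave a second reading of DLL4 and TGF-beta. At 24 h DLL4 lowered Klf4 from 28.6 and 21.5 to 3.85 and 4.68 TPM (log2 difference -2.30 ± 0.19, adjusted p = 1.2e-06), the 1 of 9 members called against 2.75% of all 10908 genes. Maf went from 92.9 and 82.7 to 168 and 163 TPM (log2 difference 0.91 ± 0.09, adjusted p = 4.2e-06) and Tfec from 22.4 and 22.6 to 39.7 and 42.7 TPM (log2 difference 0.84 ± 0.07, adjusted p = 1.8e-06), both without overlap and under 2-fold. TGF-beta on top of DLL4 lowered Maf to 51.4 and 50.7 TPM (log2 difference -1.68 ± 0.09, adjusted p = 8e-09) and raised Bhlhe41 from 22.8 and 20.3 to 61.5 and 63.3 TPM (log2 difference 1.49 ± 0.06, adjusted p = 1.2e-09), 2 of 9 against 3.8%. These are the 2 members called in the Smad4 control BMDMs, in the same directions.

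Bhlhe40 missed 2-fold in that step, at 27.6 and 26.4 against 12.3 and 15.0 TPM (log2 difference 0.94 ± 0.09, adjusted p = 3.9e-06), and passed it without the second DLL4 library (log2 1.07). Irf8 stood at 183 and 177 against 99.6 and 101 TPM (log2 difference 0.83 ± 0.04, adjusted p = 1e-08). The relatives gave 2 higher and 0 lower of 42 tested for DLL4 at 24 h, where 2.75% of all genes were called. The 2 were Spic (log2 1.57 ± 0.19, adjusted p = 3.1e-05) and Irf1 (log2 1.00 ± 0.08, adjusted p = 3.7e-07).

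DMHCA, the sterol ligand, lowered Maf. With DMHCA alone for 24 h Maf stood at 25.1 and 20.52 TPM against 92.9 and 82.7 TPM (log2 difference -1.90 ± 0.09, adjusted p = 2e-09), 1 of 9 against 5.43% of all genes. The groups were far apart. Spi1 stood at 517 and 529.9 TPM, higher than in any other group of the table (log2 difference 0.50 ± 0.05, adjusted p = 5.9e-06), and Zeb2 at 55.6 and 57.8 TPM, lower than in any other (log2 difference -0.58 ± 0.07, adjusted p = 3.1e-05). Of 42 relatives 2 were higher and 3 lower, among the latter Cebpa, a C/EBP of myeloid progenitors (log2 -1.31 ± 0.06, adjusted p = 2.7e-09). Monocyte marker sums were 57.6 to 62.0 TPM against 416 to 431 TPM and neutrophil marker sums 269 to 279 TPM against 1671 to 2205 TPM, and their part in the Maf value was not tested.

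Added to DLL4 and TGF-beta for 24 h, DMHCA called no member. There limma called 0 of 9 (1.23% of all genes) and limma-voom called 0. An unadjusted p below 0.05 held for 5 members and 3213 of all 10908 genes. Maf stood at 35.1 and 34.4 against 51.4 and 50.7 TPM (log2 difference -0.54 ± 0.09, adjusted p = 0.00068) and Tfec at 30.2 and 30.6 against 44.2 and 41.4 TPM (log2 difference -0.48 ± 0.07, adjusted p = 0.0005). Neither pair of groups overlapped. At 72 h limma called 0 of 9 (5.21% of all genes) and limma-voom called 0, and 6 members and 4590 of all 10908 genes had an unadjusted p below 0.05. Maf stood at 20.1 and 23.1 against 37.1 and 36.2 TPM (log2 difference -0.74 ± 0.09, adjusted p = 2.4e-05).

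Untreated BMDMs of the 24 h and 72 h groups differed in Klf4 and Bhlhe40. Klf4 fell from 28.6 and 21.5 TPM in the 24 h to 6.52 and 7.78 TPM in the 72 h groups (log2 difference -1.67 ± 0.19, adjusted p = 5e-06), and Bhlhe40 rose from 9.93 and 8.80 to 40.9 and 45.4 TPM (log2 difference 2.09 ± 0.09, adjusted p = 4.5e-10), 2 of 9 against 13.8% of all genes. Across all genes the median was log2 -0.21 in that comparison, and Bhlhe41, at log2 0.84, passed 2-fold under quantile normalization (1.08) and limma-voom (1.12). The day of culture differed between the 24 h and 72 h groups as well, per the labels.

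At 72 h DLL4 left no member past the line. There limma called 0 of 9 (1.73% of all genes) and limma-voom called 1. An unadjusted p below 0.05 held for 6 members and 2989 of all 10908 genes. The gene near the 2-fold line was Klf4, at 3.38 and 3.39 against 6.52 and 7.78 TPM (log2 difference -0.89 ± 0.19, adjusted p = 0.006), called with a pseudocount of 0.25 (log2 -1.02), quantile normalization (-1.10), limma-voom (-1.12) and without the first untreated library. Bhlhe40 stood at 76.0 and 86.2 TPM (log2 difference 0.89 ± 0.09, adjusted p = 1.6e-05). Maf stood lower with DLL4 at 72 h, at 57.5 and 61.9 against 83.5 and 80.9 TPM (log2 difference -0.46 ± 0.09, adjusted p = 0.0025), where at 24 h it stood higher, and that change of sign was not tested. For TGF-beta on DLL4 at 72 h limma called 0 of 9 (5.65% of all genes) and limma-voom called 0. In that step 7 members and 5193 of all 10908 genes had an unadjusted p below 0.05. Maf stood at 37.1 and 36.2 TPM (log2 difference -0.69 ± 0.09, adjusted p = 3.5e-05) and Bhlhe41 at 53.7 and 55.3 TPM (log2 difference 0.60 ± 0.06, adjusted p = 6.9e-06).

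Does blocking Notch in the animal move the factors in macrophages entering the liver? At 24 h after toxin, LY411575 lowered Tfec and raised Bhlhe40, 2 of 8 members against 6.38% of all 9885 genes. Tfec stood at 13.1, 14.4 and 14.4 TPM with LY411575 and 27.5 and 34.8 TPM in controls (log2 difference -1.09 ± 0.17, adjusted p = 0.00063). Bhlhe40 stood at 18.6, 17.4 and 22.5 TPM against 6.41 and 6.57 TPM (log2 difference 1.45 ± 0.23, adjusted p = 0.00079). Neither gene overlapped between the groups. Without the second control library Tfec was at log2 -0.93 and 1 member was called.

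Bhlhe41, below the filter, showed the same direction as Bhlhe40. It had 264, 237 and 221 reads with LY411575 and 26 and 39 in controls, or 4.14, 3.65 and 3.67 against 0.417 and 0.591 TPM, and with no filter it was called (log2 1.68 ± 0.16, adjusted p = 9.2e-05). Irf8 stood at 109, 105 and 95.5 against 148 and 151.3 TPM (log2 difference -0.54 ± 0.09, adjusted p = 0.0011) and Maf at 343, 340.4 and 361 against 414 and 444 TPM (log2 difference -0.30 ± 0.08, adjusted p = 0.015), both lower by less than 2-fold and without overlap. Klf4 stood at 23.0, 22.7 and 18.8 against 13.9 and 16.2 TPM, without overlap (log2 difference 0.49 ± 0.17, adjusted p = 0.055).

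The antibodies to DLL1 and DLL4 called no member. Here limma called 0 of 8 (2.07% of all genes), 4 had an unadjusted p below 0.05 and limma-voom called 0. Tfec stood at 19.2, 21.97, 26.6 and 27.9 TPM with antibodies and 25.9 and 34.7 TPM in controls, which overlapped (log2 difference -0.33 ± 0.16, adjusted p = 0.22). Irf8 stood at 98.8, 112, 110.0 and 107 against 126 and 154 TPM (log2 difference -0.38 ± 0.09, adjusted p = 0.016) and Zeb2 at 145, 141, 131 and 142 against 112 and 102 TPM (log2 difference 0.38 ± 0.06, adjusted p = 0.0022), both without overlap. Bhlhe40 stood at 2.10, 3.8, 4.20 and 4.51 against 6.65 and 5.04 TPM, lower and without overlap (log2 difference -0.58 ± 0.22, adjusted p = 0.11). Bhlhe41 had 56, 54, 90 and 84 reads against 21 and 28 in controls, and with no filter its difference was log2 0.61 ± 0.15, adjusted p = 0.046.

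The responses to the 2 agents differed for Bhlhe40 (log2 difference -2.03 ± 0.32, adjusted p = 0.002), 1 of 8 members against 5.38% of all genes. Klf4 (log2 difference -0.84 ± 0.24, adjusted p = 0.039) and Maf (log2 difference 0.38 ± 0.11, adjusted p = 0.039) differed by less than 2-fold. The LY411575 mice were female and the antibody mice male, so agent and sex cannot be told apart. Spic was lower with both, by log2 -3.40 ± 0.23 with LY411575 (adjusted p = 1e-06) and -1.64 ± 0.21 with antibodies (adjusted p = 0.00064). It was the 1 relative called of 36 in each, beside 6.38% and 2.07% of all genes.

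Marker sums moved with the agents. Kupffer cell markers summed to 39.8 to 43.0 TPM with LY411575 against 573 to 589.9, and monocyte markers to 3733 to 3982 against 2431 to 2506. With antibodies Kupffer cell markers summed to 226 to 364 TPM against 472 to 583, and monocyte markers to 1940 to 2929 against 2438 to 3253. Timd4 was at 0 in all libraries given antibodies and at 0.399 and 0 TPM in their controls. Hepatocyte markers summed to 665 to 689 against 310.2 to 316 TPM for LY411575 and 357 to 1414 against 1434 to 3505 TPM for antibodies. Their part in the Tfec and Bhlhe40 values was not tested.

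**Figure D4:**
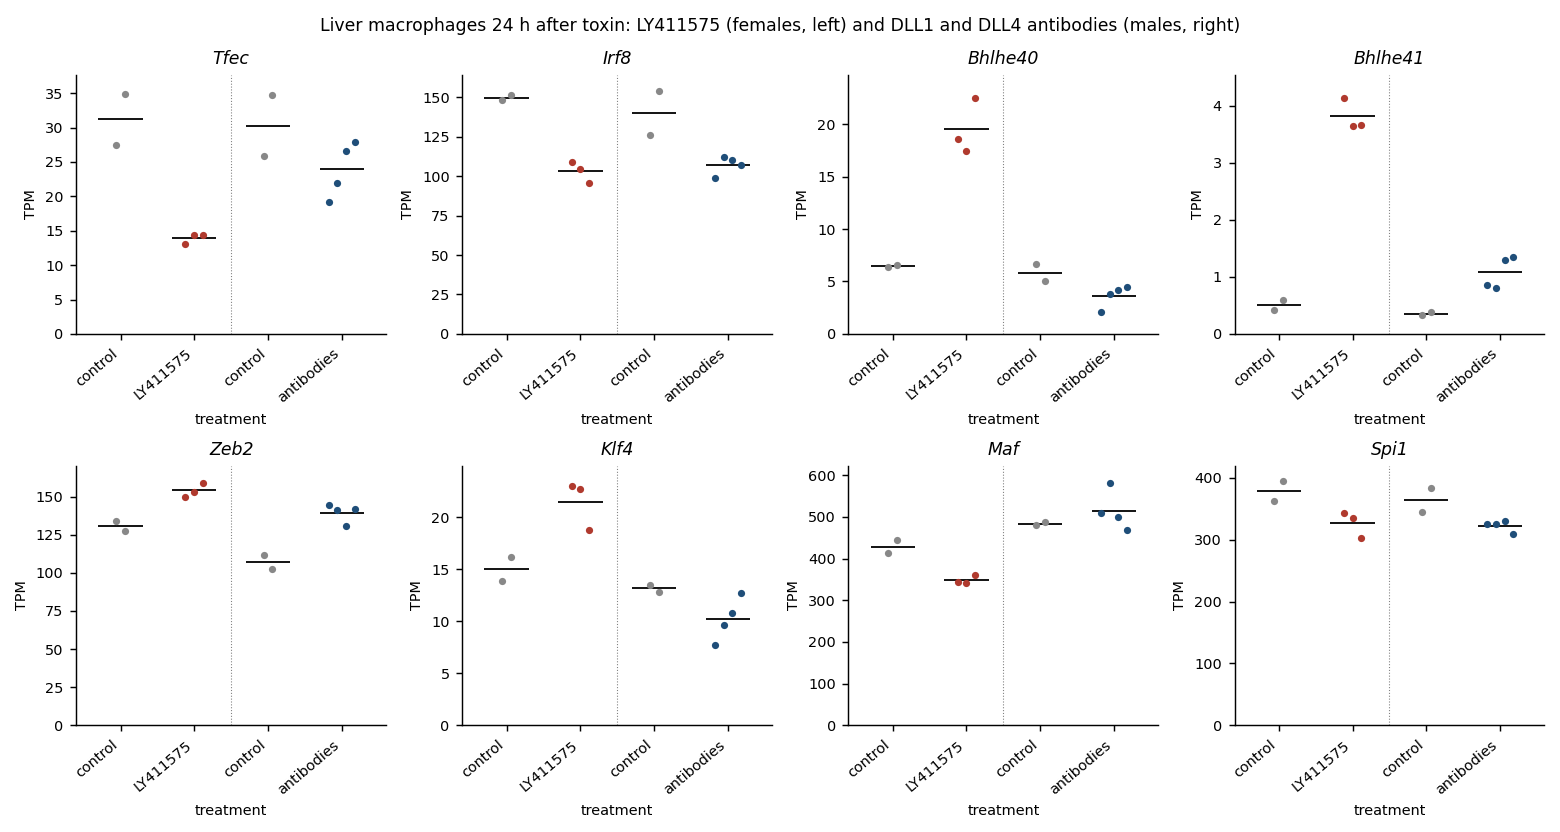
TPM per library (points) with group means (bars) of 8 genes in liver macrophages 24 h after toxin, for LY411575 (red) and its controls (females, left of the dotted line) and for antibodies to DLL1 and DLL4 (blue) and their controls (males, right); each panel has its own linear axis from 0. Tfec is at 13.1 to 14.4 TPM with LY411575 against 27.5 and 34.8 TPM in controls, and Bhlhe40 at 17.4 to 22.5 TPM with LY411575 and at 2.10 to 4.51 TPM with antibodies.

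In marrow monocytes cultured for 2 days, DLL4 raised Irf8 and lowered Bhlhe41, 2 of 9 members against 19.5% of all 10234 genes. Irf8 stood at 216 and 222 TPM with DLL4 and 74.1 and 74.4 TPM without (log2 difference 1.55 ± 0.04, adjusted p = 3.4e-10). Bhlhe41 stood at 1.20 and 1.06 TPM against 18.4 and 17.1 TPM (log2 difference -3.14 ± 0.10, adjusted p = 3.2e-09). All 9 members were without overlap between these groups, as were 86.2% of all genes. DLL4 gave no call of Bhlhe41 in BMDMs, and that difference was not tested.

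The other members differed by less than 2-fold. Klf4 stood at 5.70 and 6.18 against 12.1 and 12.5 TPM (log2 difference -0.94 ± 0.10, adjusted p = 1.5e-05) and was called with a pseudocount of 0.25 (log2 -1.02) and with limma-voom (-1.01). Tfec stood at 72.7 and 73.2 against 39.4 and 39.1 TPM (log2 difference 0.88 ± 0.06, adjusted p = 4.1e-07). Spi1 stood at 427 and 439.9 against 278 and 284 TPM, the widest step of Spi1 in any comparison (log2 difference 0.62 ± 0.03, adjusted p = 1.2e-07). Cebpb stood lower, at 75.2 and 85.3 against 127 and 127 TPM (log2 difference -0.66 ± 0.08, adjusted p = 4.9e-05).

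TGF-beta added to DLL4 called 4 of 9 members, against 8.81% of all genes. Cebpb fell to 16.7 and 19.0 TPM (log2 difference -2.11 ± 0.08, adjusted p = 3.5e-08), Maf fell from 208 and 219 to 52.6 and 57.3 TPM (log2 difference -1.94 ± 0.07, adjusted p = 2.1e-08) and Klf4 fell to 2.12 and 2.53 TPM (log2 difference -1.06 ± 0.10, adjusted p = 1.3e-05). Bhlhe40 rose from 14.8 and 15.3 to 54.6 and 55.9 TPM (log2 difference 1.81 ± 0.05, adjusted p = 4.2e-09). These 4 genes were without overlap between the groups, as were 8 of 9 members and 75.1% of all genes. The Klf4 call was lost under quantile normalization (log2 -0.69), in a comparison whose median over all genes was log2 -0.10, and without the first library given both signals (-0.98). Irf8 stood higher still, at 299 and 305 TPM (log2 difference 0.46 ± 0.04, adjusted p = 4.2e-06), and Zeb2 lower, at 64.5 and 64.5 against 107 and 104 TPM (log2 difference -0.70 ± 0.05, adjusted p = 3.3e-06). Bhlhe41 stood at 1.15 and 0.936 TPM, and the difference from BMDMs, where the same addition raised it, was not tested.

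Desmosterol, the natural ligand of LXR, called no member. Against untreated cells limma called 0 of 9 (0.244% of all genes), 4 had an unadjusted p below 0.05 and limma-voom called 0. Bhlhe40 stood at 8.42 and 8.59 TPM with desmosterol against 13.5 and 13.4 TPM (log2 difference -0.60 ± 0.05, adjusted p = 0.00022). On top of DLL4 and TGF-beta limma called 0 of 9 (0.205% of all genes), 3 had an unadjusted p below 0.05 and limma-voom called 0, with Klf4 at 1.32 and 1.43 against 2.12 and 2.53 TPM (log2 difference -0.48 ± 0.10, adjusted p = 0.02).

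Relatives of the members were called in marrow monocytes too. DLL4 raised 7 of 37 relatives and lowered 3, where 19.5% of all genes were called. Spic (log2 4.51 ± 0.24, adjusted p = 1.2e-07), Irf1 (log2 2.74 ± 0.05, adjusted p = 9.3e-11) and Irf7 (log2 2.69 ± 0.14, adjusted p = 9.2e-08) were higher. Mitf, the relative of Tfec, was lower, at 14.9 against 45.3 TPM (log2 -1.54 ± 0.05, adjusted p = 5.9e-09). TGF-beta lowered 5 of 37 relatives and raised 0, where 8.81% of all genes were called. Spic was among the lower (log2 -4.65 ± 0.24, adjusted p = 2.9e-07). Of 12 PU.1-dependent genes DLL4 raised 3 and lowered 3, and TGF-beta lowered 3. Neutrophil marker sums were 145 to 157 TPM with DLL4 against 606 to 633 without, dendritic cell marker sums 11.03 to 11.6 against 1.38 to 1.95 and sums of the endothelial list 500.1 to 536 against 19.6 to 21.3, and their part in the Irf8 and Bhlhe41 values was not tested.

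**Figure D5:**
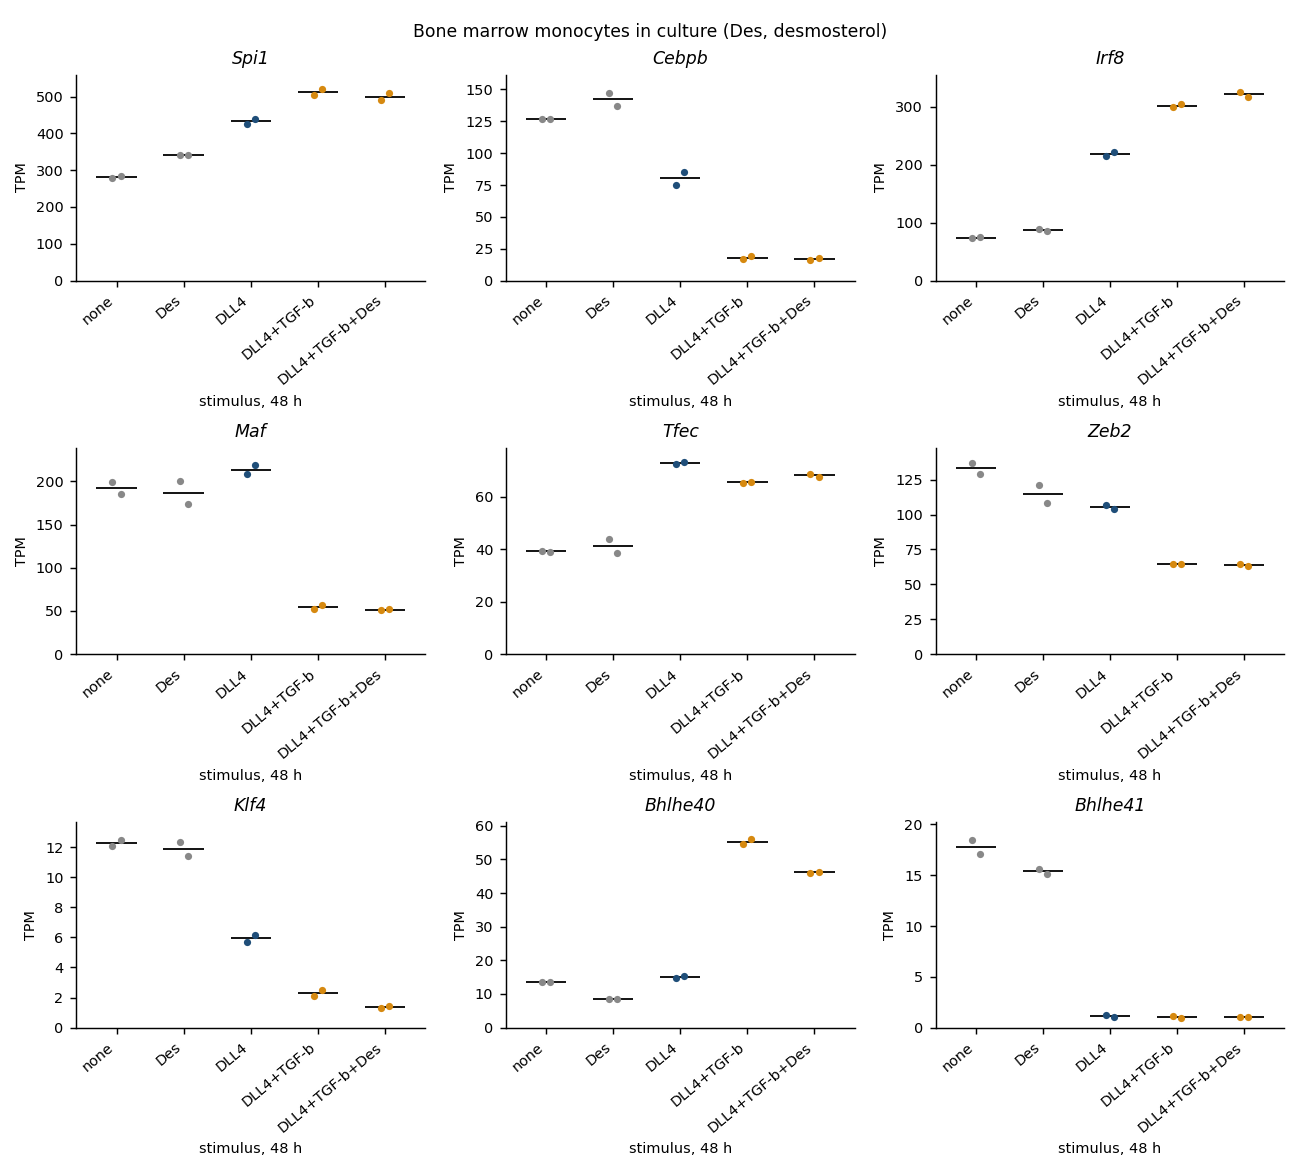
TPM per library (points) with group means (bars) of the 9 genes in bone marrow monocytes after 48 h without stimulus, with desmosterol (Des), DLL4, DLL4 and TGF-beta, or all 3; each panel has its own linear axis from 0. Irf8 is higher with DLL4 and higher still with TGF-beta, Bhlhe41 drops from 17.1 and 18.4 TPM to about 1 TPM with DLL4, and Cebpb drops to 16.7 and 19.0 TPM and Bhlhe40 climbs to 54.6 and 55.9 TPM once TGF-beta is added.

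Cells sorted on STAB2 show the factors outside macrophages. Spi1, the defining factor of myeloid cells, had 21 and 48 reads in STAB2-high cells (1.69 and 3.86 TPM), 25 and 29 in STAB2-intermediate (1.76 and 2.28 TPM) and 45 and 13 in STAB2-low cells (2.79 and 1.05 TPM). Maf by contrast stood at 1080.0 and 1021 TPM in STAB2-high cells, above 99.4% of the genes tested there by mean TPM. Stab2 itself stood at 1575 to 1713 TPM in high, 1190.1 to 1419.5 in intermediate and 67.0 to 116 in low cells.

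STAB2-low cells had less Maf and Irf8 and more Klf4 than STAB2-high cells, 3 of 7 members against 13.6% of all 10576 genes. Maf stood at 249.7 and 216 TPM against 1080.0 and 1021 TPM (log2 difference -2.17 ± 0.11, adjusted p = 8.4e-05) and Irf8 at 9.27 and 9.20 against 44.1 and 44.4 TPM (log2 difference -2.14 ± 0.15, adjusted p = 0.00021). Klf4, also a factor that laminar flow induces in endothelium, stood at 103 and 123 against 25.2 and 41.9 TPM (log2 difference 1.76 ± 0.29, adjusted p = 0.005). Of the 7 members 6 were without overlap, these 3 among them, as were 64.3% of all genes. Bhlhe40 stood at 32.1 and 42.7 against 17.4 and 19.6 TPM (log2 difference 0.96 ± 0.20, adjusted p = 0.013), and without the second STAB2-high library Bhlhe40 (log2 1.05) and Cebpb (1.14) were called too, 5 in all.

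Tfec, at 37.0 and 30.4 TPM in low and 49.5 and 58.3 TPM in high cells, and Zeb2 stood lower by less than 2-fold. Between STAB2-intermediate and STAB2-high cells limma called 0 of 7 (0.00946% of all genes), 0 had an unadjusted p below 0.05 and limma-voom called 0. Of 37 relatives 1 was higher in STAB2-low cells (Cebpd, log2 1.20 ± 0.35, adjusted p = 0.045) and 1 lower (Ets2, log2 -1.29 ± 0.10, adjusted p = 0.00028). In that comparison 13.6% of all genes were called. Stress gene sums were 1911 to 2559 TPM in low, 750 to 1333 in intermediate and 433 to 753 in high cells, and monocyte marker sums 178 to 274, 28.5 to 85.5 and 6.59 to 23.0 TPM, with S100a8, Retnlg and Mmp8 of the neutrophil list at 0 in all 3 groups. Dendritic cell marker sums were 98.8 to 105 TPM in low, 191 to 196 in intermediate and 182 to 206 in high cells. Kupffer cell marker sums lay between 1076 and 1417 TPM in all 3 groups. That list holds genes, Cdh5 among them, that endothelium can also express. Its member Timd4 stood at 1.14 to 5.22 TPM in these cells, so the sum does not measure Kupffer cells here. Endothelial marker sums were 4205 to 4641, 13400 to 15220 and 15270 to 16400 TPM. The part of stress genes and of other cells in the Klf4 and Irf8 values was not tested. The table's header gives the STAB2-low libraries another library tag than the other groups, so tag and group cannot be told apart there. All 3 sorts carry the same 2 sample numbers in their titles, and Klf4, Cebpb, Bhlhe40 and the stress sum were higher in the second number in each sort.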

How the data were processed

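The authors deposited 8 tables of TPM (transcript abundance scaled for length and library size) for 104 poly(A) RNA libraries, made with STAR and HOMER on mm10 per the submitters' processing notes, which give no versions. One header shows HOMER counting exon reads and condensing genes. TPM keep no count, but multiplying by transcript length gave whole reads (within 0.1 read, up to 20 reads) for 100% of values, and depth was taken from these. Depth limits genes with few reads, such as Bhlhe41. Libraries were grouped by labels. For 72 h BMDMs and for the controls of LY411575 and antibodies, treatment labels and titles disagree, and the titles were followed.

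Each table was fitted alone with limma 3.58.1 in R 4.3.3 (1 coefficient per group, eBayes with trend, two-sided, Benjamini-Hochberg over all genes tested) on log2(TPM + 1), for genes of at least 4 TPM in 2 libraries, in 39 comparisons and 4 interactions. Calls needed an adjusted p below 0.05 and 2-fold. Text named the 9 members, of each list of relatives or targets at most 2 called genes in each direction, and the 3 genes most like each member. The members and lists were chosen with earlier results of these data known. Alternatives were a pseudocount of 0.25, no filter, quantile normalization, limma-voom on recovered reads, a replicate block and leaving out each library. The fit was tested on simulated data. Tables and figures came from Python 3.11.15 (pandas 2.3.3, numpy 2.4.6) and matplotlib 3.10.9.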

Additional observations from a re-analysis of the deposited data

Results flagged for a closer look

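The response to TGF-beta added to DLL4 differed between Smad4 knockout and Smad4 control BMDMs for Cebpb, by log2 1.25 ± 0.17 (limma interaction, adjusted p = 0.00022), with both knockout libraries given both signals above both given DLL4 and both control libraries below. The same interaction differed for Maf, by log2 1.08 ± 0.11 (limma, adjusted p = 2.8e-05), with lower levels in 2 of 2 libraries in each genotype. Bhlhe40 differed between the responses to the antibodies and to LY411575, by log2 -2.03 ± 0.32 (limma interaction, adjusted p = 0.002), being lower than in controls in 4 of 4 antibody libraries and higher in 3 of 3 LY411575 libraries. No library stood far from the others of its group by Dixon's test in the 17 sets of a member and a group of 4 that were tested.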

How the results depend on the processing

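No called value turned its direction under any alternative run. The number of members called differed by over 1.5 times from that reported in these cases. With quantile normalization it was 2 for Nr1h3 knockout Kupffer cells, 0 for DAPT in Smad4 knockout BMDMs and 1 for DLL4 at 72 h. With limma-voom it was 3, with Bhlhe41 at log2 1.79, for Nr1h3 knockout Kupffer cells, 1 for TGF-beta in control BMDMs and 1 for DLL4 at 72 h, and a pseudocount of 0.25 gave 1 for each of the latter 2. For the antibody response minus the LY411575 response it was 2 with no filter on low values and 2 with the replicate block.

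Leaving out 1 library at a time, the count ran from 1 to 3 for 12 h against monocytes and for 24 h against 12 h, 0 to 1 for 336 h against Kupffer cells, 1 to 2 for Nr1h3 knockout Kupffer cells and for LY411575, and 3 to 5 for STAB2-low cells. It ran from 0 to 1 for TGF-beta, 0 to 2 for DLL4 and 0 to 1 for DAPT in control BMDMs, 0 to 1 for DAPT in knockout BMDMs and 0 to 1 for DLL4 at 72 h. Among differences that were not called, 26 of 313 changed sign with quantile normalization and 22 with limma-voom. The cause was not tested in any of these cases.

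Replicate numbers were not taken as pairs: correlations of same-numbered deviations ran from -0.261 to 0.339 over the tables. The highest was in the Nr1h3 table, where they ran from -0.225 to 0.339. In the STAB2 table, whose 3 sorts share 2 sample numbers, the correlations were positive, at 0.057 to 0.137. With 2 libraries in a group the deviations mirror each other, so both numbers give the same correlation. A replicate block, run in 6 tables, moved 1 count of 33, to 2, through Klf4 in the antibody minus LY411575 comparison (log2 -1.14, adjusted p = 0.03). That fit used the numbers in the titles, kept apart by experiment. These numbers differ from those in the antibody libraries' column names, so the fit gives no pairing of animals. The refilling and Smad4 Kupffer cell tables had no block fit, since their columns share too few numbers. Depth limits Bhlhe41 in liver macrophages and Spi1 in STAB2-sorted cells, which rest on 0 to 297 reads in the refilling table and 13 to 48 reads.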
